A study of Mus musculus with 5 samples.

Results

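Immediate early genes are transcribed within minutes of a stimulus, from factors that are already present in the cell, and encode transcription factors that carry the signal on to later genes. Many are switched on by ERK through serum response factor and its ELK partners, or by calcium and cyclic AMP through CREB. In gonadotropes, the pituitary cells that secrete LH and FSH, the hypothalamic hormone GnRH acts on them through ERK and calcium. EGR1 then acts with SF1 and PITX1 on the Lhb promoter, and dimers of FOS and JUN proteins (AP-1) act on Fshb. The levels described here are those without added GnRH, in cells growing in medium with serum.

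The 10 genes are Egr1, Egr2, Fos, Fosb, Jun, Junb, Jund, Atf3, Nr4a1 and Nr4a2, taken by symbol from a table of 21437 mouse genes, and all 10 were found. RNA had been sequenced from 5 lines that were not stimulated with GnRH. αT1-1 (immature), αT3-1 (intermediate) and LβT2 (mature) are gonadotrope lines by their labels. The study itself treats αT1-1 as a progenitor of gonadotropes or thyrotropes and αT3-1 as the immature stage. TαT1 is a thyrotrope line, from the TSH-secreting cells. All 4 were derived from tumors of CB6F1/J mice that carried a transgene for SV40 T-antigen, so each stage is represented by 1 transformed line. NIH3T3, an embryonic fibroblast line of Swiss mice, is the non-pituitary line. Each line was grown in medium with serum, harvested at subconfluency and given no treatment, GnRH included. Levels were deposited as RPKM, read numbers divided by gene length and by the size of the library, in 1 column per line. Replicate libraries are described in the methods, but no column holds them separately, so every difference below is without a replicate check and has no p-value. In such bulk samples, fewer cells that express a gene and less RNA per cell cannot be told apart.

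The read totals behind the columns, recovered from the steps between low values, ran from 18661308 (LβT2) to 20687488 (αT3-1) in the pituitary lines, against 14246219 in NIH3T3. For each of the 10 genes, the smallest whole numbers of reads that give its RPKM values could also be recovered. The 95% intervals in the text come from these reads. These intervals hold counting error alone, and they overstate it if the real read numbers are a multiple of the recovered ones. Of 7 gonadotrope markers, 3 stood at 1 RPKM or more in αT1-1, 5 in αT3-1, 6 in LβT2, 3 in TαT1 and none in NIH3T3. Gnrhr was listed at 0 in αT1-1, which carries a gonadotrope label, and Fshb at 0 in every line. All 6 thyrotrope markers reached 1 RPKM in TαT1 and 5 of them did so in αT1-1. All 8 fibroblast markers stood at 1 RPKM or more in NIH3T3, where they summed to 13420 RPKM, against 5.94 to 43.6 RPKM in the pituitary lines. Immune markers summed to 1.89 RPKM or less in each line. Of 4 endothelial markers, Kdr stood at 65.0 RPKM in αT1-1, 15.3 in αT3-1 and 20.9 in TαT1, and at 0 in LβT2. Cdh5 (50.6 RPKM) and Pecam1 (15.2 RPKM) were highest in LβT2, while Cdh5 stood at 0 in αT1-1 and TαT1. Tek, the fourth of these markers, stood at 0.0312 RPKM or less in every line. Their part in the levels below was not tested.

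The promoters of Nr4a1, Nr4a2, Fos, Atf3 and Jun, the members with the widest ranges among the lines, are shown first, because immediate early genes are known to answer to CREB and serum response factor. That of Egr2 is shown as the only one of the 9 members searched with a CArG box in the 250 bases before a start site. Egr1 and bases further upstream were not searched. Each line gives the 250 bases before a RefSeq start site on GRCm38.p6, on the strand of the gene. Capitals mark TGACG or its reverse complement CGTCA (the core of the CREB site, CRE), the TATA box TATAAA or its reverse complement TTTATA, and the CArG box bound by serum response factor.
Nr4a1, chr15:101266596-101266845, plus strand: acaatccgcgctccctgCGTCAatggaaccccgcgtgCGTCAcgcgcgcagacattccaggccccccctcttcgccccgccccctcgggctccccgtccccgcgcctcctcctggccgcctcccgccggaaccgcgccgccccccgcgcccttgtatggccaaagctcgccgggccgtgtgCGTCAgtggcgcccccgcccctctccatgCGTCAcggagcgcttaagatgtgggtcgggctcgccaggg
Nr4a2, chr2:57124004-57124253, minus strand: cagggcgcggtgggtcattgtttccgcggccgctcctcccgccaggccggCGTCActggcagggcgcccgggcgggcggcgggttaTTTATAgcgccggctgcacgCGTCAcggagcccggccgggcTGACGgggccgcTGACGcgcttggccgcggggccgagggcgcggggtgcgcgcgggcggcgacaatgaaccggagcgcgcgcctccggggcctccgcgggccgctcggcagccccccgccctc
Fos, chr12:85473640-85473889, plus strand: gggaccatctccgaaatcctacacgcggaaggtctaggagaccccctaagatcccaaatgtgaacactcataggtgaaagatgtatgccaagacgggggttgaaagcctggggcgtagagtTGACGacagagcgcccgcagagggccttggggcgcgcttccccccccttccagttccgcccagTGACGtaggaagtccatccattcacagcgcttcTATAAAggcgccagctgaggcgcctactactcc
Atf3, chr1:191183334-191183583, minus strand: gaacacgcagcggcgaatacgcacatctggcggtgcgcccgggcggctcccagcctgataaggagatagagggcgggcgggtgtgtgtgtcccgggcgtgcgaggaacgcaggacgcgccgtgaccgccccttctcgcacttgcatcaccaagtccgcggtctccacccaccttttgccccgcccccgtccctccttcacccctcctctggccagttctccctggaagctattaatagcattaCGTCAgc
Jun, chr4:95052223-95052472, minus strand: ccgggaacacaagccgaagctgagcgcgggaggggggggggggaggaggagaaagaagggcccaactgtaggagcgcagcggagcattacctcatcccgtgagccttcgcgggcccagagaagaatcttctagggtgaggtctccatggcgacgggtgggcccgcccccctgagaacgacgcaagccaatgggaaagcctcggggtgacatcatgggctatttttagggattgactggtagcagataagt
Egr2, chr10:67537619-67537868, plus strand: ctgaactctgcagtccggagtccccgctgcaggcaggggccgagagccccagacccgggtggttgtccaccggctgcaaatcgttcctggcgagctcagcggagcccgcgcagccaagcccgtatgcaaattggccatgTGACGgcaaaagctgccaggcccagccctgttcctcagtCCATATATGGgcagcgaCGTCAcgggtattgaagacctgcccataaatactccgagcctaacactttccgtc

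The RefSeq table held a start site for 9 of the 10 genes, and Egr1 is named only. TGACG, searched on both strands, stood in the window of 7 of these 9 genes and in 17.8% of 32851 promoters of the same length. Nr4a1 and Nr4a2 had 4 matches each, a number reached by 45 promoters in all (0.137%). In Nr4a1 they lie at -233, -213, -69 and -40 from the start site, and in Nr4a2 at -200, -144, -123 and -111. Fos had matches at -129 and -66 and a TATA box from -33 to -28, a motif found in 12.4% of promoters. Atf3 had a match from -7 to -3. Fosb and Junb had 1 match each, and Jun and Jund had none in this window. Egr2 had its CArG box at -72 to -63 of the start site shown, against 1.47% of promoters. The window of Egr2 shown is that of the third of 5 start sites in the table, and those of the last 3 overlap. The window of the first held neither TGACG nor a CArG box. That of the second held a different CArG box (CCTTTTTTGG) and no TGACG. The other genes had 1 start site each, so Egr2 had more windows in which a motif could occur than the single promoters of these shares. The full CRE TGACGTCA (both strands, each match holding TGACG on either strand, 1.55% of promoters) and the AP-1 site TGANTCA (both strands, 6.75%) had no match in any of the 9 genes. Near matches were not searched. The Jun window, for example, holds TGACATCA, which differs from the full CRE in 1 base. The EGR site GCGNGGGCG (both strands, 4.7%) was matched in Fosb, Nr4a1 and Nr4a2. The windows of Nr4a1, Atf3 and Egr2 lie inside the span that GENCODE M21 gives these genes, downstream of the start of their longest annotated extent, and that of Jund ends at 70697738, before the GENCODE start of 70698949. These are matches of letters, and binding was not measured.

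At baseline, all 10 genes reached 1 RPKM, the level taken here as expressed, in at least 1 line, and 5 of them (Egr1, Jun, Junb, Jund and Nr4a1) did so in all 5 lines. TαT1 had 9 expressed members, αT3-1 had 8, and each of the other lines had 7. The 10 genes together summed to 249 RPKM in αT1-1, 194 RPKM in αT3-1, 107 RPKM in LβT2, 213 RPKM in TαT1 and 210 in NIH3T3. LβT2 thus had the lowest sum of the 5 lines. Jund alone made up 51.5% to 68% of it in the pituitary lines, against 44.8% in NIH3T3. Most of the other members were low for expressed genes. The median expressed gene stood at 12.5 to 13.5 RPKM depending on the line, and the number of members above it was 4 in αT1-1 and in TαT1, 3 in αT3-1 and in NIH3T3, and 1 in LβT2.

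**Figure D1:**
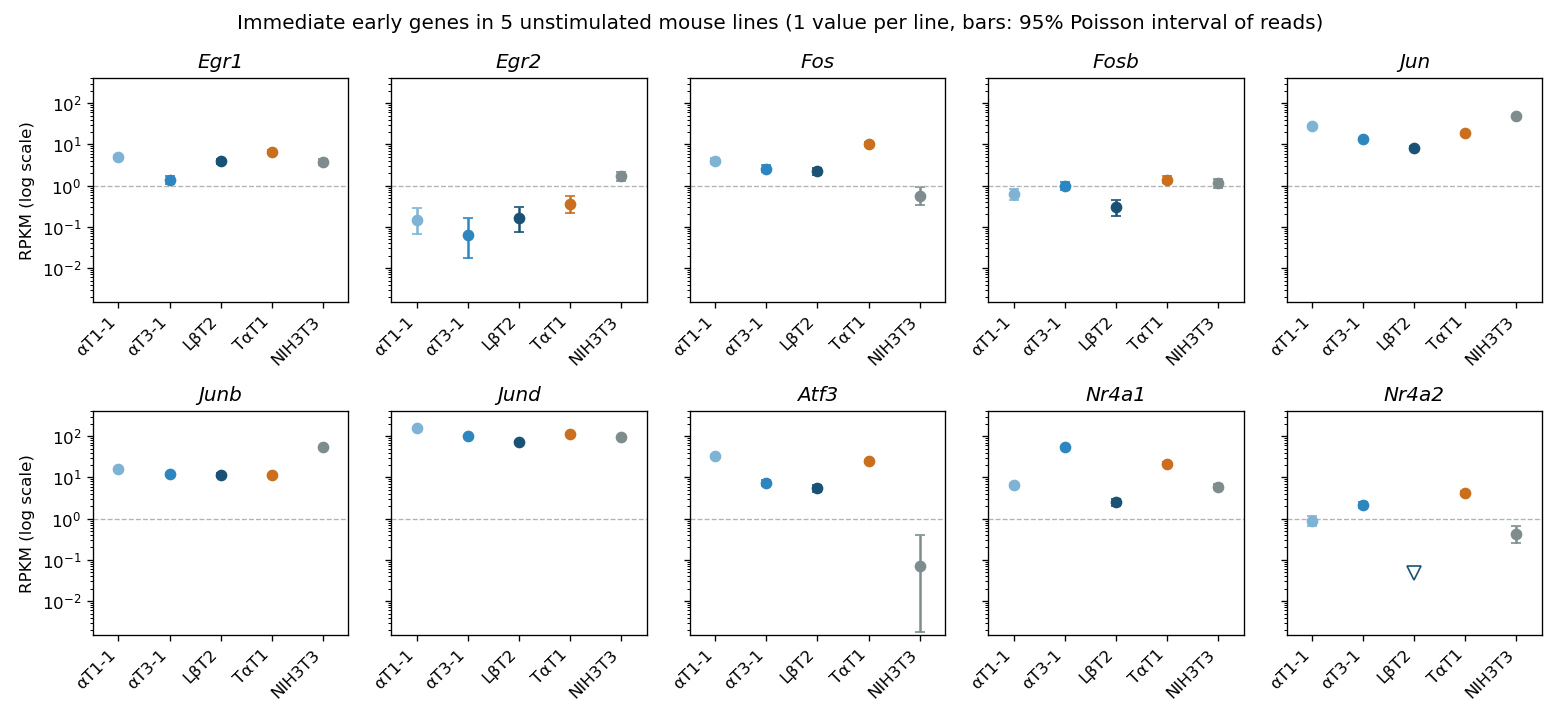
RPKM (log scale) of each gene in the 5 lines, with 1 point per line. Bars are 95% Poisson intervals of the recovered reads, the dashed line is 1 RPKM, and the open triangle is the level of 3 reads for Nr4a2 in LβT2, where no read was counted. Atf3 stands alone with a NIH3T3 value far under its pituitary values, and Nr4a1 peaks in αT3-1 at 54.0 RPKM.

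The members differed widely in how much they varied. The range of log2(RPKM + 1) over the 5 lines was 4.98 for Atf3, 3.98 for Nr4a1, 2.85 for Fos, 2.43 for Jun, 2.37 for Nr4a2 and 2.16 for Junb. It was 1.68 for Egr1, 1.33 for Egr2, 1.08 for Jund and 0.88 for Fosb. The median range was 2.26 for the members and 1.74 for the 13401 genes expressed in at least 1 line, and 6 members lay above 1.74. By range, Atf3 stood at percentile 94 of these genes and Fosb at percentile 10.1. Of 40 pairs of lines that are neighbours in the order of a member, 30 differed by more than counting error and 10 did not.

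Egr1 is a zinc finger factor that GnRH induces strongly in gonadotropes and that acts on Lhb. It lies on chromosome 18 (34859823 to 34864984 of GRCm38, plus strand, 2 exons in GENCODE M21). Egr1 stood at 5.08 RPKM in αT1-1 (316 reads), 1.38 in αT3-1 (88 reads), 3.87 in LβT2 (222 reads), 6.67 in TαT1 (386 reads) and 3.82 in NIH3T3 (167 reads). It was thus highest in TαT1 and lowest in αT3-1, and these levels differed 4.82-fold (3.81 to 6.14). LβT2 and NIH3T3 did not differ beyond counting error, at a ratio of 1.01 (0.826 to 1.25). Egr1 was under the median expressed gene in each line. The length recovered for Egr1, 3072 bases, differs from the 4484 bases of its longest coding transcript in GENCODE, so its read numbers rest on a gene model that was not identified.

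Egr2, a close relative known in mouse for its role in hindbrain and myelinating cells, was close to silent in the pituitary lines. Its levels were 0.150 RPKM in αT1-1 (9 reads), 0.0652 in αT3-1 (4 reads), 0.163 in LβT2 (9 reads) and 0.358 in TαT1 (20 reads), against 1.68 RPKM in NIH3T3 (71 reads). The 4 pituitary values lay below the fibroblast value, and each neighbouring pair among them was within counting error. The 95% intervals at the ends of this order, TαT1 (0.219 to 0.553 RPKM) and αT3-1 (0.0178 to 0.167 RPKM), did not overlap. Even the highest of the pituitary values, in TαT1, was 4.70-fold lower than in NIH3T3 (2.83 to 8.15). The gene lies on chromosome 10 (67535475 to 67542188, plus strand).

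Fos, which forms AP-1 only as a dimer with a JUN protein, showed the opposite arrangement. On chromosome 12 (85473890 to 85477273, plus strand, 4 exons), it stood at 4.01 RPKM in αT1-1 (170 reads), 2.59 in αT3-1 (112 reads), 2.23 in LβT2 (87 reads) and 10.3 in TαT1 (407 reads), against 0.570 RPKM in NIH3T3 (17 reads). All 4 pituitary lines were above the fibroblasts. The level in TαT1 was 18.1-fold that in NIH3T3 (11.2 to 31.4) and 2.57-fold that in αT1-1 (2.14 to 3.09), the next highest line. αT3-1 and LβT2 did not differ beyond counting error (ratio of αT3-1 to LβT2 1.16, 0.870 to 1.56).

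Fosb, a second inducible FOS protein (chromosome 7, 19302696 to 19310051, minus strand), was low throughout. It stood at 0.615 RPKM in αT1-1, 0.986 RPKM in αT3-1, 0.298 RPKM in LβT2 and 1.39 RPKM in TαT1, against 1.15 RPKM in NIH3T3. In the order TαT1, NIH3T3, αT3-1, neighbours did not differ beyond counting error, while TαT1 and αT3-1 were not set against each other. LβT2 was lowest, on 21 reads.

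Jun and Junb, DNA-binding partners of FOS within AP-1, were both highest in the fibroblasts. Jun has a single exon on chromosome 4 (95049034 to 95052222, minus strand). It stood at 27.8 RPKM in αT1-1 (1793 reads), 13.7 in αT3-1 (903 reads), 8.26 in LβT2 (491 reads) and 18.4 in TαT1 (1108 reads), against 48.9 RPKM in NIH3T3 (2218 reads). Each step in this order of levels was larger than counting error, and LβT2 was 5.92-fold lower than NIH3T3 (5.36 to 6.54). In the libraries, made without strand information, reads of the antisense gene Junos cannot be told apart where it overlaps Jun, over 232 bases (6.25% of the words of 36 bases in the transcript).

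Junb (chromosome 8, 84974484 to 84978718, minus strand, 1 exon in its longest coding transcript), which can oppose JUN at AP-1 sites, was nearly level among the pituitary lines. It stood at 15.7 RPKM in αT1-1 (573 reads), 11.9 in αT3-1 (444 reads), 11.5 in LβT2 (388 reads) and 11.2 in TαT1 (380 reads), against 53.4 RPKM in NIH3T3 (1374 reads). In the order αT3-1, LβT2, TαT1, neighbours were within counting error of each other. The lowest of them, TαT1, was 4.78-fold lower than NIH3T3 (4.27 to 5.37).

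Jund, the JUN protein known for steady expression in resting cells, was the most abundant member in every line. It stood at 155 RPKM in αT1-1 (9043 reads), 99.7 in αT3-1 (5936 reads), 72.8 in LβT2 (3909 reads) and 114 in TαT1 (6202 reads), against 94.0 RPKM in NIH3T3 (3853 reads). NIH3T3 lay inside the pituitary range, which ran 2.13-fold (2.05 to 2.22) between αT1-1 and LβT2. Among all genes, Jund stood between percentile 94 in LβT2 and percentile 98.1 in αT1-1. The gene (chromosome 8, 70698949 to 70700616, plus strand, 1 exon) overlaps the antisense gene Gm11175 over 877 bases, which hold 49.6% of its words of 36 bases, and reads of these genes cannot be told apart here. That share is of the GENCODE transcript of 1668 bases, whereas the length recovered from the RPKM values is 2878 bases, so the share within the counted Jund model was not determined.

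Atf3, a stress-induced factor of the ATF/CREB family that dimerizes with JUN proteins, varied most. On chromosome 1 (191170296 to 191218039, minus strand), it stood at 32.7 RPKM in αT1-1 (654 reads), 7.39 in αT3-1 (151 reads), 5.42 in LβT2 (100 reads) and 24.6 in TαT1 (459 reads), against 0.0711 RPKM in NIH3T3 (1 read). αT1-1 and TαT1 were high, αT3-1 and LβT2 were intermediate, and the fibroblasts had next to no Atf3 RNA. The ratio of αT1-1 to NIH3T3 was 460, with a counting interval of 82.3 to 18210, since the fibroblast value rests on 1 read. At the doubled gene length of 1976 bases, close to the 1984 bases annotated, it would rest on 2 reads. Among the pituitary lines, αT1-1 and TαT1 differed 1.33-fold (1.176 to 1.498), and TαT1 and αT3-1 differed 3.34-fold (2.77 to 4.04).

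Nr4a1 and Nr4a2 encode orphan nuclear receptors whose activity is set largely by their own abundance, and NR4A receptors act on Pomc in corticotropes. Nr4a1 (chromosome 15, 101254269 to 101274795, plus strand, 8 exons) stood at 6.51 RPKM in αT1-1 (326 reads), 54.0 in αT3-1 (2762 reads), 2.49 in LβT2 (115 reads) and 21.8 in TαT1 (1015 reads), against 5.99 RPKM in NIH3T3 (211 reads). αT3-1 was highest and LβT2 lowest, so that the intermediate and the mature gonadotrope line stood at opposite ends. They differed 21.7-fold (18.0 to 26.3). The NIH3T3 value lay within the pituitary range and was within counting error of αT1-1, at a ratio of αT1-1 to NIH3T3 of 1.09 (0.912 to 1.299).

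Nr4a2 (chromosome 2, 57106830 to 57124003, minus strand, 8 exons) was lower than Nr4a1 in each line. It stood at 0.886 RPKM in αT1-1 (60 reads), 2.12 in αT3-1 (147 reads), 0 in LβT2 and 4.15 in TαT1 (262 reads), against 0.420 RPKM in NIH3T3 (20 reads). LβT2, with no read, was lowest for this receptor too, while TαT1 and not αT3-1 was highest. A floor of 3 reads in LβT2 corresponds to 0.0480 RPKM. Against this floor the Nr4a2 level was 86.5-fold in TαT1, 44.2-fold in αT3-1 and 18.4-fold in αT1-1. The lower 95% limits of the ratios to LβT2, from the reads, were smaller, at 69.8, 35.5 and 14.5 in the same order.

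To set each pituitary line against the fibroblasts, a gene was counted as higher or lower at a 2-fold difference of RPKM + 1 (1 on the log2 scale), if expressed in 1 of the lines compared. These 4 comparisons share the NIH3T3 column. In αT1-1, Fos (log2 difference 1.67) and Atf3 (4.98) were higher, and Egr2 and Junb were lower, by 1.22 and 1.71. These are 2 higher and 2 lower of 9 members tested, where 30.1% and 19.1% of all genes tested were counted. In αT3-1, Fos (1.19), Atf3 (2.97), Nr4a1 (2.98) and Nr4a2 (1.14) were higher and Egr1, Egr2, Jun and Junb were lower, 4 each of 10, beside 37.1% and 21.5% of all genes. In LβT2, Fos (1.04) and Atf3 (2.58) were higher and Egr2, Jun, Junb and Nr4a1 were lower. These are 2 and 4 of 9, beside 32.5% and 17.2%. In TαT1, Fos (2.85), Atf3 (4.58), Nr4a1 (1.70) and Nr4a2 (1.86) were higher and Jun and Junb lower, 4 and 2 of 10, beside 29.4% and 18% of all genes.

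Against the fibroblasts, Fos and Atf3 were thus counted as higher in all 4 pituitary lines and Junb as lower in all 4, while Fosb and Jund were counted in none. With quantile normalization, the Fos difference was 0.98 in αT1-1, 0.06 in αT3-1 and 0.20 in LβT2, no longer 2-fold. Fosb was then counted as lower in αT1-1 (-1.08), αT3-1 (-1.11) and LβT2 (-1.44). The members' median difference was 0.22 for αT1-1, -0.02 for αT3-1, -0.62 for LβT2 and 0.48 for TαT1. That of all genes tested was 0.29, 0.38, 0.37 and 0.28 in the same order, so the members lay under it in 3 lines and above it in TαT1. Over the 9 members tested, the median was 0.10 for αT1-1 and -0.73 for LβT2.

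**Figure D2:**
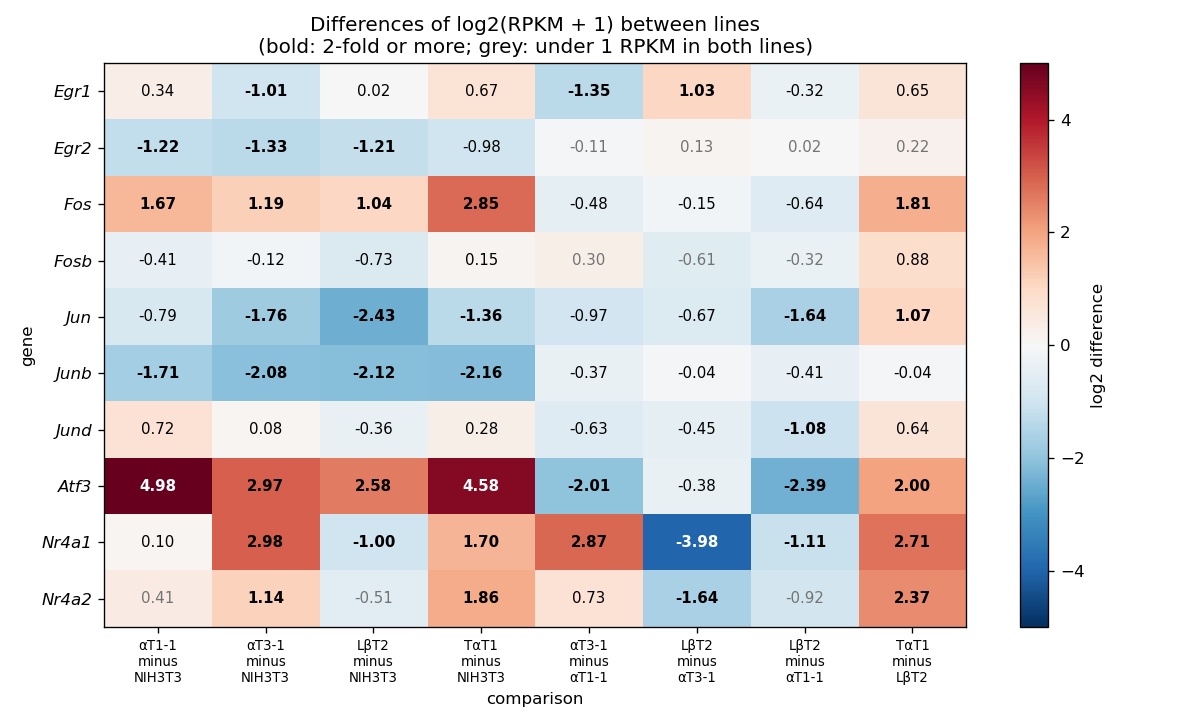
Differences of log2(RPKM + 1) for the 10 genes (rows) in 8 comparisons (columns), each as the first line minus the second. Bold values are differences of 2-fold or more, and grey values belong to genes under 1 RPKM in both lines. Atf3 and Fos are positive and Junb is negative in all 4 comparisons with NIH3T3, and LβT2 minus αT1-1 holds no 2-fold higher gene.

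Across the gonadotrope stages, most members were lowest in the mature line. Of 8 members expressed in a gonadotrope line, 7 (Fos, Jun, Junb, Jund, Atf3, Nr4a1 and Nr4a2) had their lowest value of the 3 lines in LβT2, beside 34.8% of all such genes. For Fos and Junb, LβT2 and αT3-1 were within counting error of each other, and with quantile normalization both genes were lowest in αT3-1 (LβT2 minus αT3-1 of 0.14 and 0.04). The eighth, Egr1, was lowest in αT3-1. Jun stood at 27.8, 13.7 and 8.26 RPKM in αT1-1, αT3-1 and LβT2, and Jund at 155, 99.7 and 72.8 RPKM. Both thus descended along the labelled order of stages, and so did Atf3 at 32.7, 7.39 and 5.42 RPKM.

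By pairs, αT3-1 had 1 member 2-fold higher than in αT1-1 and 2 lower, of 8 tested, beside 19.3% and 12.1% of all genes. Nr4a1 was 8.29-fold higher in αT3-1 (7.39 to 9.33), while Egr1 and Atf3 were 3.67-fold (2.89 to 4.70) and 4.43-fold (3.70 to 5.32) lower. In LβT2 against αT3-1, 1 of 8 members was higher and 2 were lower, beside 20.6% and 21.3%. Egr1 was 2.80-fold higher in LβT2 (2.17 to 3.62), and Nr4a1 and Nr4a2 were the lower members. Egr1 and Nr4a1 thus differed in opposite directions at each of these steps. Over the whole span, LβT2 against αT1-1, none of 7 members was higher (20.8% of all genes were) and 4 were lower (16.2% of all genes were). The lower members were Jun (3.37-fold, 3.04 to 3.73), Jund (2.13-fold, 2.05 to 2.22), Atf3 (6.03-fold, 4.88 to 7.52) and Nr4a1 (2.61-fold, 2.11 to 3.26). The median log2 difference there was -0.78 over all 10 members and -1.08 over the 7 tested, against 0.12 for all genes tested.

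TαT1, the mature thyrotrope line, had more immediate early gene RNA than LβT2, the mature gonadotrope line. Of 9 members tested, 5 were 2-fold higher in TαT1 and none was lower, beside 17.1% and 20.4% of all genes. Nr4a1 was 8.74-fold higher (7.20 to 10.7), Fos 4.63-fold (3.67 to 5.91), Atf3 4.54-fold (3.65 to 5.70) and Jun 2.23-fold (2.01 to 2.49), with Nr4a2 as the fifth. The median log2 difference was 0.98 over all 10 members, 1.07 over the 9 tested and -0.08 for all genes tested. Junb was an exception, with 11.2 RPKM in TαT1 and 11.5 in LβT2 (ratio 0.970, 0.840 to 1.12). TαT1 had the highest value of the 5 lines for 4 members (Egr1, Fos, Fosb and Nr4a2), beside 16.9% of all expressed genes, and LβT2 the lowest for 5 (Fosb, Jun, Jund, Nr4a1 and Nr4a2), beside 15.8%.

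RPKM is scaled to gene length, so family members can be set side by side within a line. The FOS family (Fos, Fosb, Fosl1 and Fosl2) summed to 24.6 RPKM in αT1-1, 15.7 RPKM in αT3-1, 5.30 RPKM in LβT2 and 35.7 RPKM in TαT1, against 108 RPKM in NIH3T3. Fosl2, a FOS protein that responds more slowly, held the largest share in the pituitary lines, 81.2% for αT1-1, 76.1% for αT3-1, 50.5% for LβT2 and 66.1% for TαT1. Fos held 16.3%, 16.5%, 42% and 28.9% of it in these lines, against 0.526% in NIH3T3. In the fibroblasts, Fosl1 (57.9 RPKM, 53.4%) and Fosl2 (48.8 RPKM, 45%) made up most of the sum, whereas Fosl1 stood between 0 and 0.394 RPKM in the pituitary lines. Thus the fibroblasts had the largest FOS family sum and the smallest Fos value.

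The JUN family summed to 199 RPKM in αT1-1, 125 RPKM in αT3-1, 92.5 RPKM in LβT2 and 144 RPKM in TαT1, against 196 RPKM in NIH3T3. Jund held 78.1% to 79.6% of it in the 4 pituitary lines, a nearly constant share, and 47.9% in NIH3T3, where Jun (24.9%) and Junb (27.2%) held the rest. Summed JUN RNA was 8.06 times summed FOS RNA in αT1-1, 7.99 times in αT3-1, 17.5 times in LβT2 and 4.03 times in TαT1, against 1.81 times in NIH3T3.

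Egr1 held 75% of the EGR family for αT1-1, 74.3% for αT3-1, 94.8% for LβT2 and 84.3% for TαT1, against 67% in NIH3T3, where Egr2 held 29.5%. Egr4, a member best known from neurons, took 21.2% in αT1-1 and 22.2% in αT3-1 and was listed at 0 in NIH3T3. Egr3 stayed at 0.198 RPKM or less in each line. Nr4a1 held 75.4% (TαT1) to 96.7% (LβT2) of the NR4A family. Nr4a3 stood at 0.105 RPKM in αT1-1, 1.49 RPKM in αT3-1, 0.0853 RPKM in LβT2 and 2.93 RPKM in TαT1, against 0.0745 RPKM in NIH3T3. The NR4A sum was 7.50 RPKM in αT1-1, 57.6 RPKM in αT3-1, 2.58 RPKM in LβT2 and 28.9 RPKM in TαT1, against 6.48 RPKM in NIH3T3. All 3 receptors had their highest values in αT3-1 or TαT1 and stood lowest or next to lowest in LβT2. Nr4a3 rested on 4, 3 and 2 reads in αT1-1, LβT2 and NIH3T3, too few to order these lines.

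**Figure D3:**
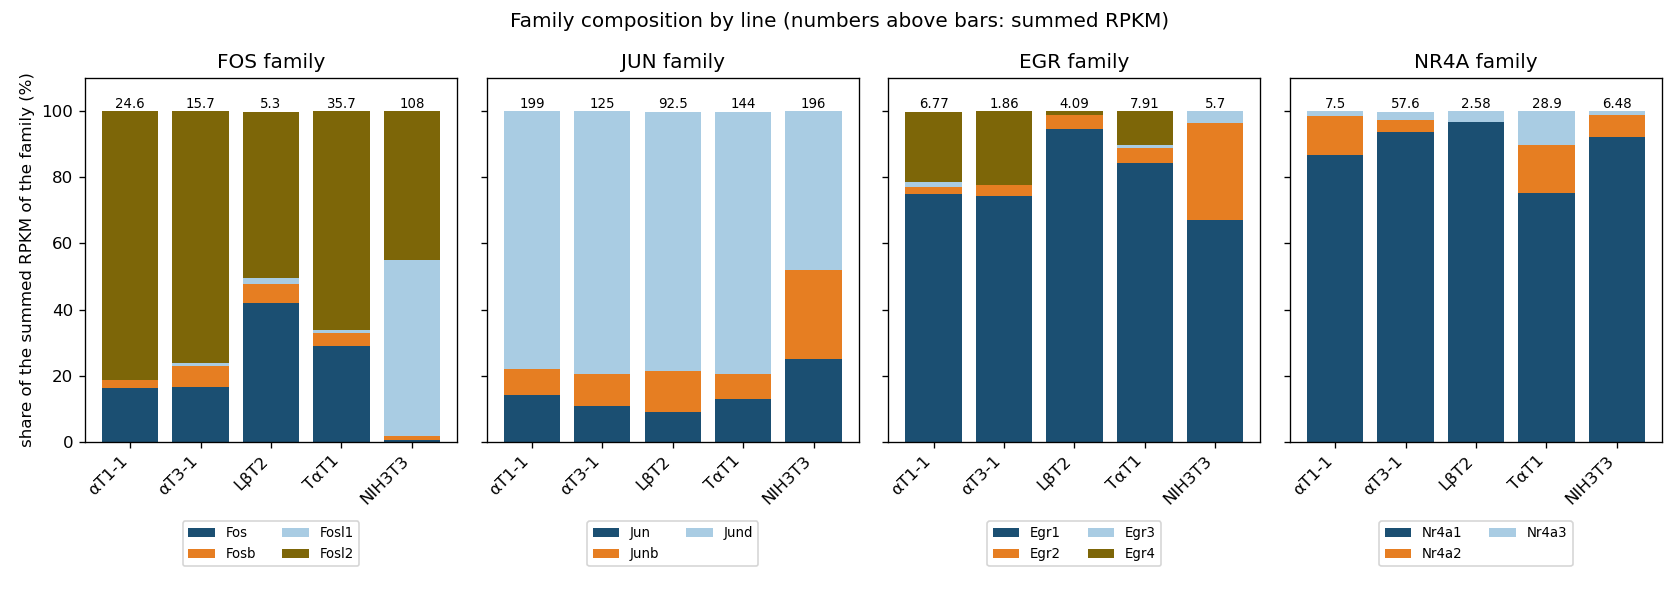
Share of each family's summed RPKM (percent, stacked bars) held by each gene in the 5 lines, with the summed RPKM above each bar. Jund takes close to the same share of the JUN family in the 4 pituitary lines (78.1% to 79.6%) and 47.9% in NIH3T3, and Fosl1 appears as a large share in NIH3T3 only, at 53.4%.

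Among 34 other immediate early genes, more were lower than higher in each pituitary line than in the fibroblasts. At 2-fold, 6 were higher and 15 lower in αT1-1 (28 tested) and in αT3-1 (31 tested), 4 and 19 in LβT2 (29 tested), and 5 and 16 in TαT1 (29 tested). Among all genes tested, 29.4% to 37.1% were higher and 17.2% to 21.5% were lower. The median differences of the listed genes were -1.36, -0.76, -2.09 and -1.11 among those tested, all under the medians of all genes given above. Ctgf, which encodes a matricellular growth factor, stood at 0 in the gonadotrope lines and 0.0442 RPKM in TαT1, against 58.3 RPKM in NIH3T3. Ier3, an inducible survival factor, stood at 1.59 RPKM in αT1-1, 5.99 RPKM in αT3-1, 4.97 RPKM in LβT2 and 0.0974 RPKM in TαT1, against 154 RPKM in NIH3T3. Myc, a growth regulator, showed 8.34, 0.846, 1.92 and 27.2 RPKM in the same order, against 122 RPKM in NIH3T3. Id1, an inhibitor of bHLH factors, departed from this and was highest in αT1-1 (281 RPKM) and TαT1 (223 RPKM), as Atf3 was, against 68.1 RPKM in NIH3T3. Rhob, a small GTPase, was highest in αT3-1 at 57.2 RPKM. Npas4, a calcium-induced neuronal factor chosen after its values were seen, stood at 8.92 RPKM in αT3-1 and at 0.567 RPKM or less in the other lines. It shares with Nr4a1 a maximum in αT3-1.

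Of 20 feedback inhibitors and corepressors, those lower than in NIH3T3 numbered 10 for αT1-1, 11 for αT3-1, 13 for LβT2 and 8 for TαT1, and 1, 3, 2 and 2 were higher. Of the 20, 19 were tested in each line except αT3-1, where all 20 were. Among all genes tested, 17.2% to 21.5% were lower and 29.4% to 37.1% were higher. Nab2, a corepressor of EGR1, stood at 0.0789 RPKM in αT1-1, 6.39 RPKM in αT3-1, 6.85 RPKM in LβT2 and 1.31 RPKM in TαT1, against 28.9 RPKM in NIH3T3. Its lowest values were in αT1-1 and TαT1, the lines with the most Egr1. LβT2 and NIH3T3, however, had nearly the same Egr1 level (3.87 and 3.82 RPKM) and Nab2 levels far apart. A relation of Nab2 to Egr1 was not tested. Dusp1, a phosphatase that switches off MAP kinases, stood at 41.1 RPKM in αT1-1, 13.1 RPKM in αT3-1, 10.3 RPKM in LβT2 and 64.3 RPKM in TαT1, against 51.7 RPKM in NIH3T3. Dusp4, a related phosphatase, was lowest in LβT2 (0.177 RPKM) and reached 14.95 RPKM in TαT1. Like Fos, both phosphatases were highest of the pituitary lines in TαT1 and lowest in LβT2. Zfp36, which promotes decay of AU-rich mRNAs, stood at 0.0560 RPKM in αT1-1, 2.79 RPKM in αT3-1, 7.41 RPKM in LβT2 and 4.39 RPKM in TαT1, against 11.8 RPKM in NIH3T3. Zfp36l1, of the same family, was at 0.0178 RPKM or less in each pituitary line. Zfp36l2, also of that family, stood at 16.4, 18.7, 6.46 and 8.40 RPKM in αT1-1, αT3-1, LβT2 and TαT1, against 36.2 RPKM in NIH3T3.

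Most of the kinases and factors that switch immediate early genes on were expressed in each line. Of 37 listed, 36 were in the table, and those expressed numbered 36 in αT1-1, 35 in αT3-1 and in TαT1, 32 in LβT2 and 31 in NIH3T3. Mapk3, which encodes ERK1, stood between 118 RPKM in TαT1 and 185 in αT3-1, and Prkaca, which encodes a catalytic subunit of protein kinase A, reached 182 RPKM in TαT1, against 74.6 RPKM in NIH3T3. Compared with NIH3T3, αT1-1 had 11 higher and 4 lower of 36 tested, αT3-1 had 13 and 5 of 35, LβT2 had 7 and 7 of 34, and TαT1 had 7 and 9 of 35. The shares of all genes tested that were higher were 30.1%, 37.1%, 32.5% and 29.4% in this order. Those that were lower were 19.1%, 21.5%, 17.2% and 18%. Rps6ka1, a kinase downstream of ERK, stood at 7.70 to 29.6 RPKM in the pituitary lines, against 0.0224 RPKM in NIH3T3. Elk3, a partner of serum response factor, was at 0.177 RPKM in LβT2 and 7.39 to 18.6 RPKM in the other pituitary lines. Camk2d, a calcium-dependent kinase, was listed at 0 in LβT2.

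**Figure D4:**
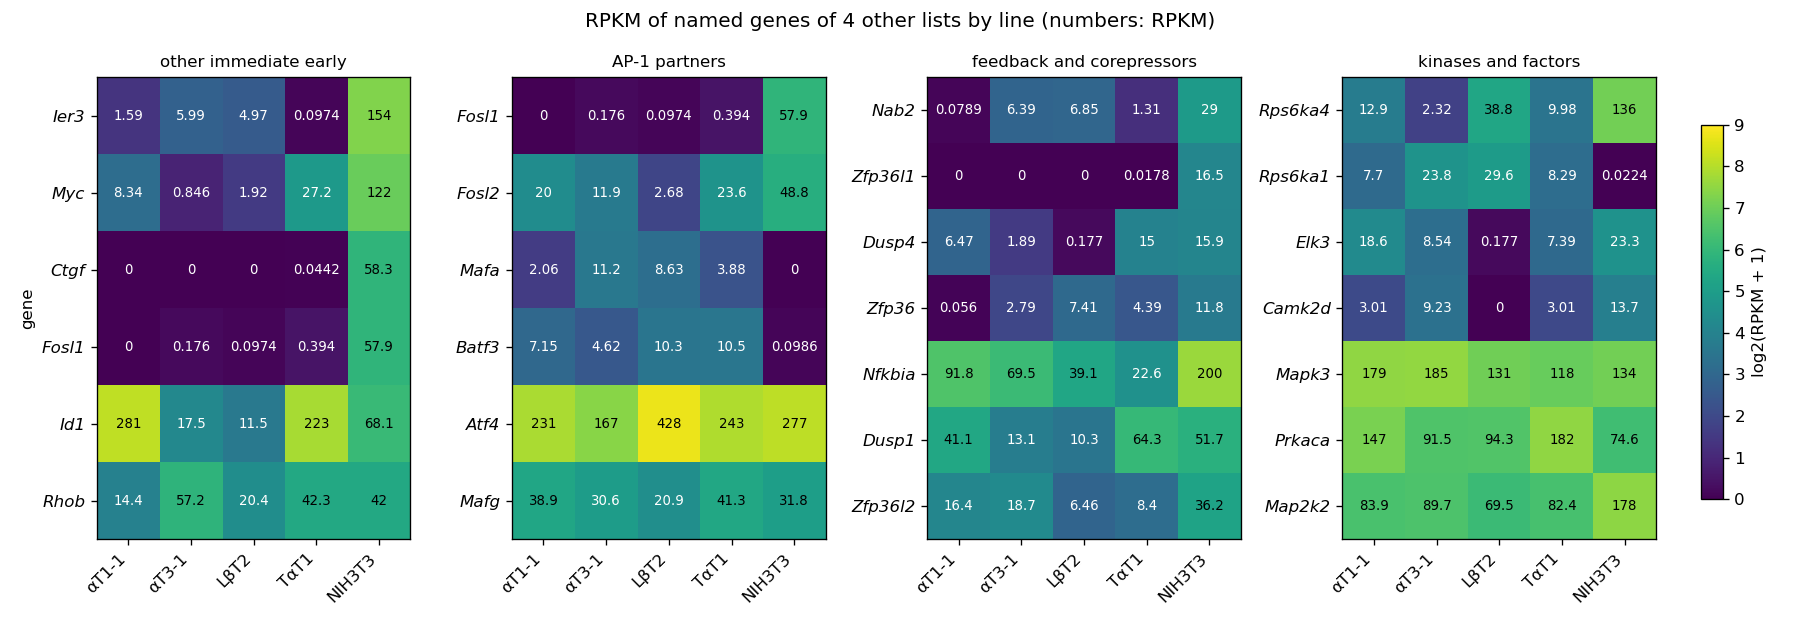
RPKM (numbers) and log2(RPKM + 1) (colour) of the genes named by rule from 4 other lists, by line. NIH3T3 holds the highest value for Ier3, Myc, Ctgf, Fosl1 and Nab2, while Mapk3 stays between 118 and 185 RPKM in all 5 lines.

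Among 16 AP-1 partners, 3, 3, 2 and 2 were higher in αT1-1, αT3-1, LβT2 and TαT1 than in NIH3T3. In the same order, 5, 5, 3 and 5 were lower, more than were higher in each line, though by small counts. The median differences of those tested were -0.08, -0.39, -0.58 and -0.37, all under the medians of all genes given above. Only 12, 12, 11 and 11 of the 16 reached the level needed to be counted, and the shares of all genes tested are those given above. Batf3, a partner that dimerizes with JUN proteins, stood at 4.62 to 10.5 RPKM in the pituitary lines, against 0.0986 RPKM in NIH3T3. Atf4, a stress-responsive partner, was highest in LβT2 at 428 RPKM. Of 10 heat shock genes, 9 were tested in each pituitary line against NIH3T3, and of these 1 was higher and 3 or 4 were lower. Among all genes tested, 29.4% to 37.1% were higher and 17.2% to 21.5% were lower. Hsph1, a cochaperone, stood at 135 RPKM in αT1-1, 39.8 RPKM in αT3-1, 24.6 RPKM in LβT2 and 95.5 RPKM in TαT1, against 41.6 RPKM in NIH3T3. Like Atf3, it was high in αT1-1 and TαT1.

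Of 8 pituitary genes known as targets of these factors, 1 was expressed in αT1-1, 4 in αT3-1, 5 in LβT2, 2 in TαT1 and none in NIH3T3. Lhb, the LH β subunit gene on which EGR1 acts, stood at 23.3 RPKM in LβT2 (221 reads) and at 2 or 3 reads in each other line, while Egr1 was higher in αT1-1 and TαT1 than in LβT2. Gnrhr, the GnRH receptor gene with an AP-1 site in its promoter, stood at 206 RPKM in αT3-1 and 72.3 in LβT2 and was listed at 0 in αT1-1, TαT1 and NIH3T3. Pomc, an NR4A target in corticotropes, stood at 5.22 RPKM in TαT1 (99 reads) and at 0 to 2 reads elsewhere, αT3-1 with its 54.0 RPKM of Nr4a1 included. Nr5a1, which encodes SF1, stood at 162 RPKM in αT3-1 and 265 in LβT2 and under 1 RPKM in the other lines.

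For members that ranged over at least 2 on the log2 scale, the genes with the most similar profile over the 5 lines were sought among 13252 expressed genes. The measure is the root mean square difference of line-centred log2(RPKM + 1). For Fos these were Tmcc2 (0.05), Smpd3 (0.12) and Klhdc10 (0.14), and for Jun they were Cad (0.14), Fez2 (0.14) and Tnrc18 (0.15). Cad encodes an enzyme of pyrimidine synthesis and Smpd3 a sphingomyelinase. Junb was closest to Slc7a7 (0.12), Ugt1a6a (0.13) and Tgif2 (0.15). Slc7a7 and Ugt1a6a stood at 0.145 RPKM or less in the pituitary lines, against 3.69 and 3.20 RPKM in NIH3T3. On the scale of RPKM + 1, such low genes can lie near a member whose fold differences are much smaller. Nr4a2 was closest to Slc8a3 (0.19), Hs3st5 (0.20) and Kcnk10 (0.21), low genes as well. In NIH3T3 these stood at 0.0138 RPKM or less, against 0.420 RPKM for Nr4a2. The profiles of Atf3 and Nr4a1 had no gene so near. These members also had the widest ranges, and the measure is not scaled to the range. Bai1 (0.23), Axin2 (0.35) and E130012A19Rik (0.39) came nearest to Atf3, and Pmepa1 (0.33), Ppp1r16b (0.35) and D11Bwg0517e (0.36) to Nr4a1. The members and the genes of the other lists had been left out of this search, so none of them could appear.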

How the data were processed

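RNA of 5 mouse lines had been sequenced by the authors from TruSeq v2 libraries, which do not mark the strand, and aligned with CASAVA (version not given in the sources used here, like the genome build, the annotation and any pooling of libraries). From the aligned reads the authors computed the RPKM values that they deposited. Of 21476 entries, 25 with a date for a name were left out, and 9 duplicated symbols were taken at the higher mean. Reads (36 bases) were recovered as the smallest whole numbers that fit all 5 columns at lengths of 150 to 15000 bases, for 16050 of 17489 genes above 0 (91.8%). Poisson and binomial intervals are exact. The steps were tested on simulated data. No test between lines was made.

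Lines were compared by differences of log2(RPKM + 1), a scale on which changes of low genes look smaller. Members and lists were chosen with earlier results of these data known. Named genes are the 10 members, up to 4 per list by range and 3 by mean, and the 3 most similar genes per member. Marker levels and the genes Egr3, Egr4, Nr4a3, Lhb, Fshb and Pomc were added to these, and Npas4 was chosen after its values were seen. A gene of the list of AP-1 partners is not reported here, and the counts of that list leave it out. Alternatives were pseudocounts of 0.1 and 5, no minimum, median-of-ratios scaling, quantile normalization and a 4-fold threshold. Positions come from GENCODE M21 (GRCm38), and promoters from RefSeq (GRCm38.p6). Python 3.11.15, NumPy 2.4.6, pandas 2.3.3, SciPy 1.17.1 and Matplotlib 3.10.9 were used.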

Additional observations from a re-analysis of the deposited data

How the results depend on the processing

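Of 80 differences between lines for the 10 genes, 39 were of 2-fold or more, and all 39 kept their direction with quantile normalization. The other alternatives could not have reversed them. A pseudocount, a minimum and a threshold leave the direction as it is. The factors of median-of-ratios scaling, 0.913 to 1.06, lie too close together to reverse a 2-fold difference. Of 96 counts of genes under the 6 alternatives, 67 were within 1.5 times the value reported and 29 were not. The 67 include the 16 counts without a minimum, which could not change. With a pseudocount of 5, the genes counted as higher and lower against NIH3T3 were 1 and 1 in αT1-1, 2 and 2 in αT3-1, and 1 and 2 in LβT2. There were 1 lower gene in αT3-1 against αT1-1, 0 higher and 1 lower in LβT2 against αT3-1, and 3 higher in TαT1 against LβT2. With a 4-fold threshold, the higher and lower genes against NIH3T3 were 1 and 0 in αT1-1, and 1 and 2 in LβT2, with 2 and 1 in both αT3-1 and TαT1. There were then 1 lower gene in αT3-1 against αT1-1, 0 higher and 1 lower in LβT2 against αT3-1, 1 lower in LβT2 against αT1-1, and 2 higher in TαT1 against LβT2. Fewer genes follow from the construction of both settings. Median-of-ratios scaling left 1 higher gene in LβT2 against NIH3T3, with Fos at 0.93, and 0 in LβT2 against αT3-1, with Egr1 at 0.91. Quantile normalization left 1 higher gene in αT1-1, 2 in αT3-1 and 1 in LβT2 against NIH3T3, with Nr4a2 at 0.04 in αT3-1, and 3, 5, 6 and 3 lower genes in αT1-1, αT3-1, LβT2 and TαT1. A pseudocount of 0.1 gave 2 higher genes in αT3-1 against αT1-1. Leaving out the minimum could change no count, since a gene under 1 RPKM in both lines cannot differ 2-fold in RPKM + 1.

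Quantile normalization moved the median difference of all genes against NIH3T3 to between -0.08 and -0.02, and the share of higher genes among those counted to 49.7% for αT1-1, 49% for αT3-1, 48.3% for LβT2 and 49.8% for TαT1, against 61.2%, 63.4%, 65.4% and 62% with RPKM as deposited. The cause was not tested. Depth limits the low members: Egr2 in αT3-1 rests on 4 reads, Atf3 in NIH3T3 on 1, and Nr4a2 in LβT2 on none. With 1 column per line, no library could be left out. No paired analysis was possible because each line has 1 column.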
